A study of Drosophila melanogaster with 2 samples.

Results

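Chromosome 4 is the smallest chromosome of Drosophila melanogaster, and its genes were described here in larvae that carry a mutant allele of HP1c. The members are all measured genes that the Ensembl BDGP6 annotation places on chromosome 4, except those with symbols starting RpS, eIF, ATPsyn or ND-. They number 82 of the 14001 genes measured, 75 of them protein-coding and 7 annotated as pseudogenes, and the rule that defines them uses position and symbol, not measured values. RNA was sequenced from larvae with 2 copies of the HP1c f04929 allele, taken at the third instar and grown at 25 °C, in 2 libraries labelled as replicates of this one genotype. All larvae therefore carry the allele, and no control genotype was analysed here, so no value below measures an effect of the mutation. The labels do not say whether the libraries came from separate cultures, so their spread may be technical.

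Most of chromosome 4 is packaged as heterochromatin, with methylated histone H3 and HP1a spread over its gene-bearing arm and transposable elements between and inside its genes. Genes on the arm are nevertheless transcribed from within this chromatin. The arm is known for Pof, a protein that coats it and binds its transcripts, and for the methyltransferase Eggless (egg), which methylates histone H3 there. HP1c, encoded on another chromosome, is a paralog of HP1a. Chromosome 4 holds developmental regulators such as ci and ey beside signalling, synaptic and housekeeping genes.

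Replicate 1 held 39745145 and replicate 2 held 45177298 estimated reads, of which the members took 1.10% and 1.09%. The rRNA pseudogene entries held 12.1% of replicate 1 and 2.55% of replicate 2. At this depth 3 reads on an effective length of 1000 bases correspond to 0.0849 and 0.0640 TPM, the unit of level used here, which normalises reads for transcript length and library depth. HP1c itself stood at 0.842 and 1.08 TPM in replicates 1 and 2, from 25 and 42 reads.

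Nearly all protein-coding genes of chromosome 4 were expressed in these larvae, most of them at moderate levels. At 1 TPM or more in both libraries, 70 of the 75 coding genes were detected, and 73 of all 82 members (89.0%), against 77.9% of all 14001 genes. None of the 75 coding genes had 0 reads in both libraries, against 480 of 13440 coding genes on arms 2L, 2R, 3L, 3R and X, from which the same symbols had been left out. A mean level of 20 to 50 TPM was reached by 27 of the 75 (36.0%), against 15.9% on the other arms. Levels under 1 TPM were found for 5.33% against 19.7%. At 100 TPM or more the shares were close, 6.67% and 6.66%. These shares describe the arms, which were not tested against each other.

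**Figure D1:**
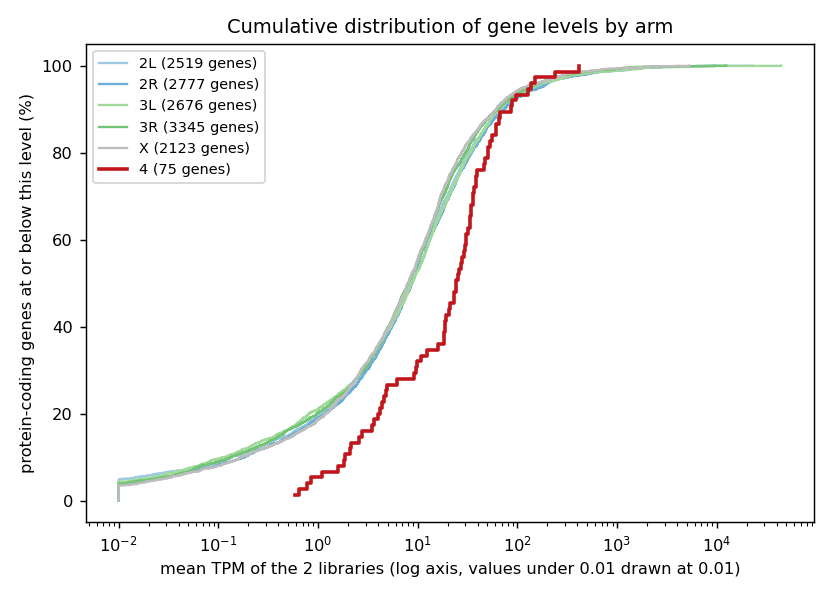
Share of protein-coding genes (%, vertical axis) at or below each mean TPM of the 2 libraries (horizontal log axis), one line per arm, chromosome 4 in red. The chromosome 4 line stays under the others up to about 100 TPM, with 5.33% of its genes under 1 TPM, and meets them at the top.

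The median level of the detected genes was 25.2 ± 0.555 TPM on chromosome 4 (SD between libraries, n = 2). On the other arms it ran from 11.7 ± 0.790 TPM on X to 13.7 ± 0.274 TPM on 3L. Within a library, the chromosome 4 median was 1.84 ± 0.0774 times that of the highest other arm (SD, n = 2). Chromosome 4 genes are also long. The median annotated span of its detected genes was 9332 bases, against 2386.5 bases over the other arms. Among detected genes that span at least 10 kb, the medians were 21.4 ± 0.00439 TPM on chromosome 4 and between 11.2 ± 1.63 TPM (2L) and 15.3 ± 2.31 TPM (3L) elsewhere. The ratio to the highest other arm was then 1.40 ± 0.198.

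Transposable elements lay within most of these genes, and the median levels of members with and without one, pseudogenes included, were close. The annotation holds 566 elements on chromosome 4, or 421 per Mb, against 22.9 (3R) to 59.3 (2R) per Mb on the other arms. The span of 65 of the 82 members contains at least one. Of the detected genes, 80.8% on chromosome 4 and 6.82% on the other arms do so. Detected chromosome 4 genes with an element had medians of 27.3 and 25.6 TPM in replicates 1 and 2. Those without one had 24.6 and 26.6 TPM, so the order differed between libraries with pseudogenes counted. The 14 detected without an element include the pseudogenes CR32009 and CR46405, both far below these medians. The 59 detected with one include the pseudogene CR43361. Over all members, undetected ones included, those with an element were lower in both, at 21.4 and 21.4 TPM against 23.0 and 23.1 TPM. Of the 17 members without an element only 12 are coding, against 63 of the 65 with one. The group without thus holds more of the weakly expressed pseudogenes. Coding members alone were not compared, so these medians do not give the order among coding genes. The 5 undetected coding genes, Ekar, fd102C, mGluR, fuss and sv, all hold an element. On the other arms the genes with an element had medians from 12.2 ± 1.41 TPM (3R) to 17.3 ± 1.41 TPM (2R).

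Single genes with many elements ranged widely. Cadps, a priming factor of dense-core vesicles, holds the most, with 25 elements over 35.8% of its span, and stood at 9.95 and 11.7 TPM in replicates 1 and 2. In pho, which encodes the DNA-binding Polycomb group protein Pleiohomeotic, 7 elements over 48.8% of its span go with 36.6 and 34.6 TPM. The ankyrin gene Ank holds 11 elements over 36.3% of its span and stood at 62.1 and 60.2 TPM. The kinesin gene Kif3C, with 12 elements over 52.0% of its span, stood at only 2.12 and 1.64 TPM. Of the 5 members at 100 TPM or more, 2 hold an element, and the median span of these 5 was 2730 bases. The 24 coding members under 10 TPM had a median span of 11600.5 bases and a median of 6 elements, and the 46 between 10 and 100 TPM a median span of 10473.5 bases and 3.5 elements.

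Along the arm, low and high genes alternated, and no stretch was silent. The members run from JYalpha (chromosome 4, 879 to 5039 of BDGP6) near the centromere to Cadps (1230837 to 1271759). Divided by coordinate into a proximal, a middle and a distal part of equal length, the arm had median levels of detected genes of 23.7 ± 1.25, 22.2 ± 0.0257 and 33.5 ± 0.445 TPM (SD between libraries, n = 2). The distal part was highest in both libraries. It also had the most elements per gene, with a mean of 6.81 against 3.60 and 4.08 in the proximal and middle parts. The number of detected genes was 28 of 30, 22 of 26 and 23 of 26.

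**Figure D2:**
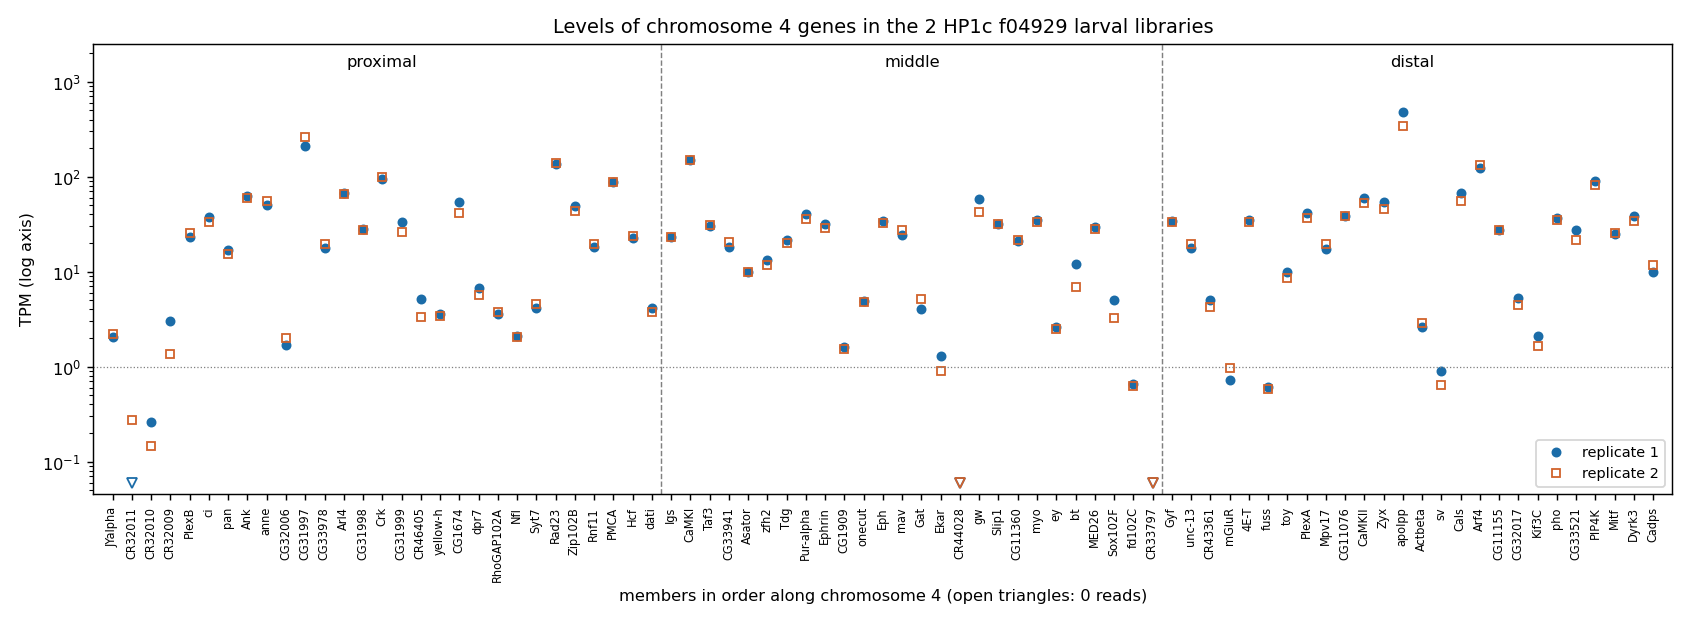
TPM (log axis) of the members in their order along chromosome 4, replicate 1 as filled circles and replicate 2 as open squares, with triangles for 0 reads and a dotted line at 1 TPM. Genes of 10 to 100 TPM occur in all 3 parts of the arm, apolpp reaches the highest level, and the points of both libraries lie close together for most genes.

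The proximal end began with weakly expressed entries. JYalpha, which encodes a sodium/potassium ATPase alpha subunit needed for male fertility, stood at 2.13 ± 0.0888 TPM (SD, n = 2). Next to it lie the pseudogenes CR32011, CR32010 and CR32009. CR32009 (27020 to 31633) stood at 2.99 and 1.37 TPM, and CR32010 at 0.263 and 0.146 TPM from 38 and 28 reads. CR32011 had 0 reads in replicate 1, which allows up to 0.0204 TPM at 3 reads, and 0.272 TPM in replicate 2 (95% Poisson interval 0.205 to 0.360). Expression then reached moderate levels within a short distance, with PlexB (32478 to 43778) at 23.2 and 25.6 TPM and ci (47710 to 57041) at 38.1 and 33.7 TPM.

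Runs of neighbouring low genes were short. The longest run of coding members with a mean under 10 TPM was dpr7, RhoGAP102A, NfI and Syt7 (247124 to 306481), 4 genes for an immunoglobulin-domain surface protein, a GTPase-activating protein, a nuclear factor I transcription factor and a synaptotagmin. It ended at Rad23 (308093 to 310822), a shuttle factor of the proteasome and of nucleotide excision repair, which stood at 135 and 138 TPM. The other 7 runs held 2 genes each, among them Sox102F with fd102C, fuss with toy, and Actbeta with sv.

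Genes that start next to each other on opposite strands included pairs with close and with distant levels. In 11 pairs of members the outermost annotated starts lie within 2000 bases of each other, but the start that held most of a gene's level could lie elsewhere. The leading starts, by the mean share of both libraries, lay within 2000 bases in 8 of the 11 pairs. Of these 8, 3 differed by less than 2-fold in both libraries and 1 by more than 5-fold, with a range from 1.48-fold to 9.48-fold. In the closest pair by this mean, Tdg and Pur-alpha, the leading starts are 369 bases apart. The Pur-alpha start used, at 558223, held 32.1% and 46.0% in replicates 1 and 2. In replicate 1 the start at 559664 held more, 40.5%. Pur-alpha, which encodes a single-stranded nucleic acid-binding protein, was 1.92-fold and 1.78-fold higher than Tdg in replicates 1 and 2. The leading starts of CG31999 and yellow-h are 1966 bases apart, and CG31999 was 9.48-fold and 7.80-fold higher. In the other 3 pairs the leading starts were farther apart, at 2275 bases for Syt7 and Rad23, 2667 bases for lgs and CaMKI, and 8596 bases for the TGF-beta ligand gene myo and the eye gene ey.

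The most abundant of the members was apolpp, whose product, apolipophorin, is the main lipid carrier of the haemolymph and is made in the fat body. It reached 482 and 346 TPM in replicates 1 and 2, supplying 39.9% and 33.7% of the reads of all members. The 4 chromosome 4 genes left out by symbol are outside this ranking and share. Second was CG31997 (154654 to 156060) at 212 and 263 TPM. The calcium/calmodulin-dependent kinase gene CaMKI followed at 150.0 and 149 TPM, then Rad23 and the small GTPase gene Arf4 at 123 and 133 TPM. These 5 were the members at 100 TPM or more by their mean. In whole larvae a low level can come from fewer cells of a type or from less RNA per cell, and these cannot be told apart.

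Transcription factor genes, for which the arm is best known, were among its lower members. The 13 listed had a median of 9.25 ± 0.997 TPM over the 11 detected, against 25.2 ± 0.555 TPM over all detected members, and 8 of the 13 had a mean under 10 TPM. The highest were ci, the zinc finger effector of Hedgehog signalling, at 35.9 ± 3.09 TPM (SD, n = 2) and pho at 35.6 ± 1.40 TPM. Mitf, a basic helix-loop-helix regulator of lysosomal genes, stood at 24.8 and 25.5 TPM. The Wingless pathway factor pan (TCF) stood at 16.9 and 15.4 TPM and zfh2, a zinc finger homeodomain gene of the wing hinge, at 13.4 and 11.7 TPM. These 5 genes lay above 10 TPM in both libraries.

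Both Pax6 genes of the fly were detected at low levels in whole larvae. The levels were 9.96 and 8.55 TPM for toy and 2.63 and 2.47 TPM for ey in replicates 1 and 2. The order was the same in both libraries, toy being 3.78-fold and 3.47-fold higher. The Pax2 relative sv (shaven), used in sense organs and the eye, stood at 0.901 and 0.640 TPM, under 1 TPM in both libraries. Its Poisson intervals were 0.750 to 1.07 and 0.523 to 0.776 TPM. The gene sv shares exonic sequence with Cals on the opposite strand. The SoxD gene Sox102F stood at 5.05 and 3.24 TPM, onecut, a homeodomain gene of neurons, at 4.88 and 4.79 TPM, and the zinc finger gene dati at 4.18 and 3.73 TPM. NfI stood at 2.11 and 2.07 TPM. The forkhead gene fd102C was the least abundant of the class, at 0.662 and 0.619 TPM from 51 and 63 reads.

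Most cofactors of transcription stood above most of the DNA-binding factors. The 5 detected of 6 lay between 22.4 and 40.9 TPM, with a median of 28.9 ± 0.814 TPM. They include lgs, whose product links pan's partner Armadillo to Pygopus, at 23.0 and 23.1 TPM and thus above pan in both libraries. Others were the TFIID subunit gene Taf3 at 30.5 and 30.7 TPM, the Mediator subunit gene MED26 at 29.5 and 28.3 TPM and Hcf at 22.4 and 23.5 TPM. Pur-alpha stood at 40.9 and 35.6 TPM. The exception was fuss, of the Ski/Sno family of TGF-beta signalling cofactors, at 0.606 and 0.577 TPM, under the detection threshold in both libraries.

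All 3 TGF-beta superfamily ligand genes of the arm were detected. These ligands signal through serine/threonine kinase receptors and control growth, metamorphosis and synapses in larvae. Myoglianin (myo) stood at 34.8 and 33.4 TPM and maverick (mav) at 24.5 and 27.7 TPM, while the activin gene Actbeta, known from neurons, stood at 2.61 and 2.91 TPM. Actbeta was lowest in both libraries, with myo 13.4-fold and 11.5-fold and mav 9.38-fold and 9.51-fold higher than it. The levels of myo and mav lay 1.32 ± 0.152-fold apart (SD, n = 2).

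Receptors and ligands of axon guidance, which steer growing axons by contact or by secreted cues, lay between 23.2 and 41.6 TPM in both libraries, dpr7 excepted. The receptor tyrosine kinase gene Eph and the gene of its ligand, Ephrin, were close. Eph stood at 34.5 and 32.9 TPM and Ephrin at 31.5 and 29.0 TPM, which put Eph 1.10-fold and 1.14-fold higher. Of the semaphorin receptor genes, PlexA stood at 41.6 and 37.0 TPM and PlexB at 23.2 and 25.6 TPM, with PlexA higher in both libraries. Only dpr7 was under 10 TPM, at 6.78 and 5.69 TPM.

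The 14 genes listed under synapse and ion transport split into high and low members. Highest was PMCA, the plasma membrane calcium pump, at 88.8 and 88.4 TPM, followed by the calsyntenin gene Cals at 67.1 and 55.2 TPM and CaMKII, the kinase of synaptic plasticity, at 59.2 and 53.2 TPM. The P-type ATPase gene anne stood at 49.8 and 55.2 TPM and the zinc transporter gene Zip102B at 49.0 and 43.3 TPM. Genes that act in transmitter release were lower. These were unc-13 at 17.8 and 19.7 TPM, Cadps at 9.95 and 11.7 TPM and Syt7 at 4.18 and 4.52 TPM. Slip1, whose product binds the potassium channel Slowpoke, stood at 31.7 and 31.7 TPM, and CG11155, of the ionotropic glutamate receptor family, at 27.8 and 27.1 TPM.

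At the low end of the class, Gat, the GABA transporter gene of glia, stood at 4.08 and 5.10 TPM. The kainate-type receptor gene Ekar stood at 1.31 and 0.908 TPM, above the detection threshold in replicate 1 only, with Poisson intervals of 1.09 to 1.55 and 0.752 to 1.09 TPM that nearly touch without overlapping. The metabotropic glutamate receptor gene mGluR stood at 0.725 and 0.958 TPM from 146 and 230 reads, with intervals of 0.612 to 0.853 and 0.838 to 1.09 TPM. Expression of these 2 receptors was thus measurable but close to 1 TPM at this depth.

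Kinases, lipid kinases and small G protein genes, as listed, had the highest class median, 66.8 ± 1.55 TPM over 7 genes. The list holds the adaptor gene Crk but not the kinase gene CaMKI, so this median depends on the listing. After Arf4 came the adaptor gene Crk at 94.7 and 98.2 TPM, the phosphoinositide kinase gene PIP4K at 91.1 and 81.6 TPM and Arl4 at 67.9 and 65.7 TPM. Dyrk3, a dual-specificity kinase gene, stood at 38.4 and 34.3 TPM. The tau-tubulin kinase relative Asator was low, at 9.81 and 9.97 TPM, as was RhoGAP102A, at 3.55 and 3.79 TPM. PIP4K has an exon overlap with CG33521, and Asator with CG33941, and without strand the reads of such pairs cannot be told apart. In all, 17 members have an exon overlap with another measured gene, and ci, PlexB, dati, Taf3, fuss and others overlap annotated antisense RNAs that are not among the measured transcripts.

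**Figure D3:**
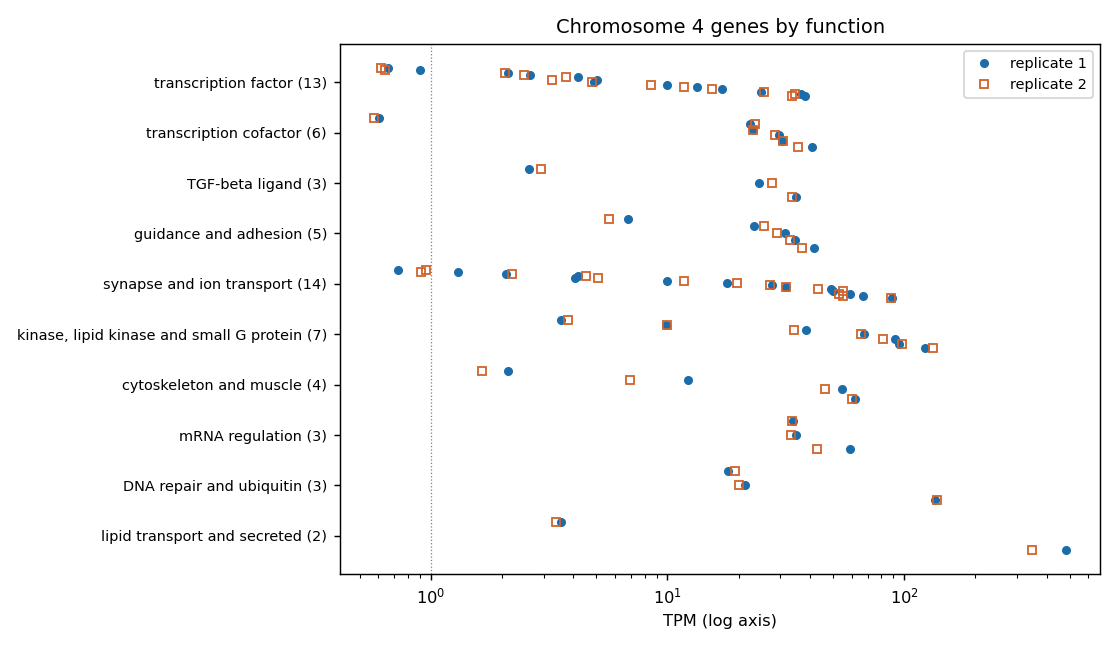
TPM (log axis) of chromosome 4 genes grouped by function, replicate 1 as filled circles and replicate 2 as open squares, with the number of genes per class in brackets and a dotted line at 1 TPM. Transcription factors and synaptic genes spread from under 1 TPM upward, while the genes of mRNA regulation all lie above 33 TPM.

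All 3 genes of mRNA regulation lay above 33 TPM in both libraries. The GW182 gene gw, which links microRNA-bound Argonaute to mRNA decay, stood at 58.8 and 43.0 TPM, the translational repressor gene 4E-T at 35.1 and 33.2 TPM and Gyf, a GYF-domain partner of such repressors, at 33.8 and 33.7 TPM. Among repair and ubiquitin genes, Rad23 stood far above Tdg, the thymine DNA glycosylase gene, at 20.7 ± 0.957 TPM (SD, n = 2) and the ubiquitin ligase gene Rnf11 at 18.0 and 19.3 TPM. The gene yellow-h, of the yellow family, stood at 3.54 and 3.39 TPM.

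In the cytoskeletal group, Ank was followed by the zyxin gene Zyx, which acts at focal adhesions and in Hippo signalling, at 54.6 and 46.1 TPM. Zyx has an exon overlap with the far more abundant apolpp on the other strand. Of its measured transcripts only Zyx-RH and Zyx-RL reach into apolpp. They held 0% and 1.57% of the Zyx level in replicate 1 and 1.92% and 0% in replicate 2. The other Zyx transcripts start at 1060918 on the minus strand and run away from apolpp, whose first base is 1060969. The giant sarcomere protein projectin is encoded by bt (chromosome 4, 724400 to 776474, plus strand), which stood at 12.2 and 6.93 TPM. It supplied 11337 and 8540 reads, so its low TPM goes with a transcript of up to 27666 bases.

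The 14 coding genes outside these classes were all detected and ranged from CG1909 at 1.62 and 1.52 TPM to CG31997. CG1674 stood at 53.6 and 41.7 TPM, CG11076 at 38.7 and 38.9 TPM and CG31999 at 33.6 and 26.5 TPM. CG31998 stood at 28.2 and 27.3 TPM, CG33521 at 27.3 and 21.7 and CG11360 at 20.9 and 21.4 TPM. CG33941, Mpv17 (a mitochondrial membrane protein gene) and CG33978 lay between 17.3 and 20.7 TPM. CG32017 was low, at 5.31 and 4.49 TPM, and so was CG32006, at 1.67 and 1.98 TPM. Together with CaMKI, these genes had a median of 22.8 ± 1.82 TPM, near that of the arm.

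The 7 pseudogene entries were the lowest group, with 3 detected. CR46405 stood at 5.11 and 3.36 TPM from 19 and 16 reads, and CR43361, whose exons overlap unc-13, at 5.04 and 4.22 TPM. CR44028 and CR33797 had 0 reads in both libraries. At 3 reads their lengths allow up to 0.343 and 0.153 TPM in replicate 1, and 0.267 and 0.117 TPM in replicate 2.

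The measured genes of a list of heterochromatin and HP1 family factors were also detected, apart from HP1c. Of 11 listed, 10 were measured and 9 of these detected, against 77.9% of all genes. None of the 10 was at least 2-fold apart between the libraries, against 5.42% of all genes, which says little for so short a list. Pof stood at 35.8 and 38.6 TPM, egg at 9.71 and 10.4 TPM and its cofactor gene wde at 13.9 and 12.9 TPM in replicates 1 and 2. The gene of HP1a stood highest at 182 and 202 TPM, and HP1b at 31.2 and 31.0 TPM. Of the methyltransferase genes, Su(var)3-9 stood at 4.65 and 4.19 TPM and G9a at 8.74 and 8.63 TPM, and the zinc finger gene Su(var)3-7 at 10.2 and 10.5 TPM. JIL-1, a histone H3 kinase gene, stood at 17.9 and 15.7 TPM.

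Most chromosome 4 genes differed little between the 2 libraries. With a mean of at least 10 reads, 80 members could be compared after TMM scaling. At least 2-fold apart, with an exact 95% counting interval that excludes 1, were 2 of the 80, against 5.42% of the 12203 genes compared. Both are pseudogenes. CR32009 was 2.14-fold (95% interval 1.77 to 2.58) higher in replicate 1. CR32011, with 0 and 52 reads, was 13.4-fold higher in replicate 2 when replicate 1 is set to a floor of 3 reads (lower 95% counting limit 10.5). The estimated reads of both are fractional, such as 51.557 for CR32011, although a single transcript of each held them all. Any division of reads with other genes is not covered by these intervals. Higher in replicate 1 was thus 1 member against a background of 4.11%, and higher in replicate 2 another 1 against 1.32%. The log2 ratio, replicate 2 over replicate 1, had a median of -0.034 over the members (quartiles -0.19 and 0.079) and 0.020 over all genes (-0.19 and 0.19). A size under 0.5 was found for 73 of the 80 (91.3%), against 82.9% of all genes. These ratios compare 2 libraries of one genotype, with no test over replicates.

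**Figure D4:**
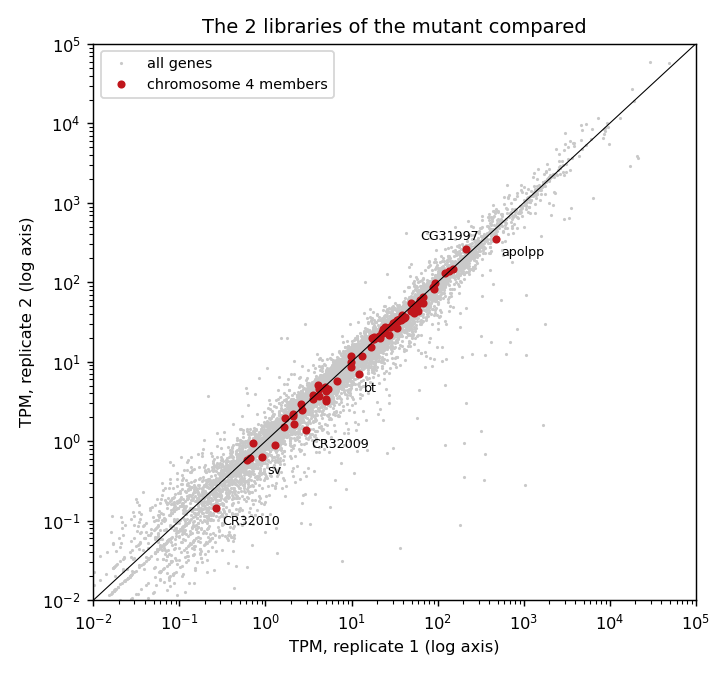
TPM of each gene in replicate 1 (horizontal) and replicate 2 (vertical), both log axes, with all genes in grey, chromosome 4 members in red and the line of equal levels. Most members lie along the line, and bt, sv, CR32009 and CR32010 lie below it, higher in replicate 1. Genes at 0 in either library are not drawn.

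At 1.5-fold, 5 members were apart (6.25%), against 12.2% of all genes, 4 of them higher in replicate 1 (background 7.85%) and CR32011 higher in replicate 2 (background 4.36%). Besides CR32009, these 4 were bt at 1.72-fold (95% interval 1.67 to 1.77), sv at 1.56-fold (95% interval 1.19 to 2.04) and the pseudogene CR32010 at 1.76-fold (95% interval 1.05 to 2.97). CR32010 likewise had fractional estimated reads on a single transcript, 38.314 and 28.055 in replicates 1 and 2. The fat body gene apolpp had a log2 ratio of -0.44 and gw one of -0.41. In the opposite direction, Gat had a log2 ratio of 0.35 and CG31997 one of 0.33. All other members compared had ratios nearer 0, apart from Kif3C (-0.34), Sox102F (-0.54), Ekar (-0.49) and CR46405 (-0.61).

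Transcript length moved with this difference in all genes. Over genes whose longest listed transcript is under 1000 bases, the median log2 ratio was 0.065. It was -0.100 at 4000 to 8000 bases, -0.21 at 8000 to 16000 bases and -0.46 over the 23 genes of 16000 bases or more, of which 22 were below 0. Of the 7 members of 8000 bases or more, 6 were below 0, in order of length bt (-0.78), Tdg (-0.086), zfh2 (-0.16), apolpp (-0.44), PlexA (-0.13) and pan (-0.27). The exception among these 7 was unc-13, at 0.15 with a transcript of 12914 bases. Shorter members did not follow the bands of all genes. The 31 members at 4000 to 8000 bases had a median of 0.0047, with 15 below 0, and the 29 at 2000 to 4000 bases one of -0.064, against 0.010 for all genes. The part of length in the difference was not tested.

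**Figure D5:**
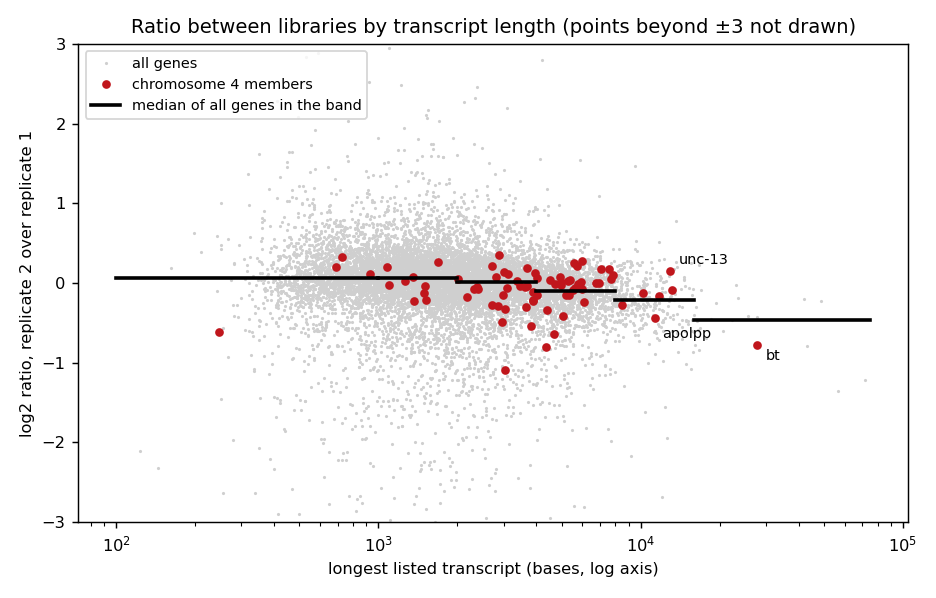
Log2 ratio of replicate 2 over replicate 1 after TMM scaling (vertical axis) against the longest listed transcript in bases (horizontal log axis), for all genes in grey and chromosome 4 members in red, with black bars for the median of all genes in each length band. The bars step down from 0.065 to -0.46 with length, bt lies at -0.78, and CR32011 at 6.34 is beyond the axis.

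Muscle and fat body genes were read beside bt and apolpp. Of 14 body wall muscle genes, chosen after the data were seen, 10 had log2 ratios below 0, against 5753 of all 12203 genes (47.1%). The summed level of the 14 was 2765 TPM in replicate 1 and 2536 TPM in replicate 2. At least 2-fold apart were 2 of the 14, both higher in replicate 1. The share over all genes was 5.42% either way and 4.11% for higher in replicate 1. These 2 were sls and Mhc, at -1.36 and -1.04, further apart than bt. The shortest listed, TpnC47D, stood at -0.69, and the highest ratio was 0.19, for Act87E. None of the 14 was at 0, the lowest being Obsc at 2.14 and 1.38 TPM. Of 7 fat body genes other than apolpp, 5 were below 0, with summed levels of 36467 and 30337 TPM. By the same rule none of the 7 was 2-fold apart, against 5.42% of all genes, which says little for so few genes. Among them Fbp1 stood at -0.80 and Lsp2 at 0.033, and the lowest was Apoltp at 2.51 and 1.80 TPM. The part of either tissue in the values of bt and apolpp was not tested.

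Isoform estimates within the arm were less stable than gene sums. The 82 members are represented by 294 transcripts, and 68 members have more than 1. The leading transcript was the same in both libraries for 58 of the 68. Among those at 10 TPM or more, this held for 40 of 46 (87.0%), against 92.1% on the other arms. Taken singly, 51 of 264 member transcripts (19.3%) were at least 2-fold apart, against 19.5% of all transcripts compared. Reads shared between isoforms are divided by estimation, and this error is not covered by the counting intervals.

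Several members nevertheless had a transcript with most of the gene's level. ci-RA made up 96.3% ± 0.427 of the ci level (SD, n = 2), apolpp-RA 92.3% ± 0.879 of apolpp and Arf4-RB 95.3% ± 1.38 of Arf4. CaMKI-RA, which starts at 446578, made up 72.0% ± 1.70 of CaMKI, while PMCA-RM led PMCA with 47.5% ± 0.597. For ey, the leading ey-RD (start at 704651) took 68.7% and 71.0% in replicates 1 and 2, and ey-RB, which starts upstream at 697689, 9.01% and 17.5%. The share of toy was divided between toy-RA at 58.3% ± 2.02 and toy-RC at 41.7% ± 2.02. Of the zfh2 transcripts, zfh2-RC held 69.2% ± 3.65 and zfh2-RA had 0 reads in both libraries.

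In other members the leading transcript changed between libraries. CaMKII-RJ led in replicate 1 and CaMKII-RH in replicate 2, with shares of 38.5% and 28.2% for RJ. CaMKII-RH held 25.1% and 38.4%, and both start at 1051378. Zyx-RG went from 37.9% to 16.5%, while Zyx-RA held 33.9% and 46.3%. For sv, sv-RA held 50.8% in replicate 1 and 0% in replicate 2. Its 7 transcripts share 125 and 104 reads, so no order among them can be read at this depth.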

How the data were processed

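RNA from 2 libraries of larvae at the third instar was isolated with Trizol and prepared with Illumina protocols, per the labels' protocols. The authors deposited TPM and estimated counts per FlyBase transcript, with column names of salmon output, per the file headers. Per the submitters' processing notes, the tools were STAR 2.5.2, HTSeq 0.6.1, Picard, bcl2fastq 2.18.0.12 and FastQC, with no role stated. Quantifier, build and strandedness: not given in the sources used here.

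Of 30119 transcripts, 29992 were matched by identifier to Ensembl release 115 (BDGP6), and TPM and counts were summed per gene. Unmatched transcripts held 0.0981% and 0.110% of the reads. Of 86 measured genes on chromosome 4, 4 were left out by symbol, and CG46466 and long non-coding RNAs were not analysed here. Coordinates are 1-based. No sequence is shown. Older symbols were matched through synonyms (Arf4 for Arf102F, Tdg for Thd1, Taf3 for bip2). The listed gene Kul lies on 3R and is no member, and the chromatin factor SuUR was not analysed here.

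Levels are TPM in each library or mean ± SD. The estimated counts, rounded to whole reads, were scaled by TMM of edgeR 4.0.16 (R 4.3.3). DESeq2 1.42.0 gave alternative size factors. A gene was called apart between libraries where its mean reached 10 reads, its ratio reached 2-fold and the Clopper-Pearson 95% interval that excludes 1. Log2 ratios had 0.5 reads added. A library at 0 was set to a floor of 3 reads. Poisson intervals and floors cover counting error only. With 1 group, no test between groups was possible and no p-value is given.

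The set of members, though defined by position and symbol, and the gene lists were chosen with earlier results of these data known. Named are all members with a listed function, the 10 most abundant, those under 1 TPM in a library, those at least 2-fold apart, and the first and last on the arm. One member is counted in all totals but is not reported here by name and is left out of the plots that mark members. The muscle and fat body lists, length bands and other members were added after the values were seen.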

Additional observations from a re-analysis of the deposited data

How the results depend on the processing

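Of 79 alternative values, 56 stayed within the spread of the libraries and 23 moved. For counts the margin was 1.5 times, and for log2 ratios a small fixed value. Medians and arm ratios from 1 library alone lie within the spread by construction, so they are no check. The chromosome 4 median of 25.2 TPM became 23.2 and 33.4 TPM with detection at 0.5 and 5 TPM, 21.7 over all members, 26.4 with rRNA left out, 27.5 with the excluded symbols put back and 21.4 for spans of at least 10 kb. As CPM, which ignores length, it was 86.3. The ratio to the highest other arm, 1.84, became 1.60 at 5 TPM, 2.504 over all genes, 1.40 for long spans, 1.98 with the excluded symbols and 3.96 as CPM. It stayed above 1 in each.

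The 2 members at least 2-fold apart became 1 with library size only, 1 at a mean of at least 100 reads, 5 at 1.5-fold, 1 at 4-fold and 51 for single transcripts. The median log2 ratio of -0.034 became -0.051 with DESeq2 size factors and 0.15 with library size only, which moves all genes by 0.19. The middle part of the arm stood at 22.7 TPM with parts of equal gene number. Over all class members, undetected ones included, the medians were 4.92 TPM for transcription factors, 26.1 for cofactors and 23.1 for synapse and ion transport.

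No paired analysis was possible because both libraries belong to one genotype. Ratios between libraries need both, so neither was left out there. With 1 library each, the values above ranged from 24.8 to 25.6 TPM for the median and from 1.79 to 1.90 for the ratio to the highest other arm. Depth limits genes with few reads, such as fd102C and fuss, and sharing of reads limits the isoforms.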

Other observations

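The median level of long genes was lower in replicate 2 on each of the other arms, while on chromosome 4 it was 21.4 TPM in both libraries. For detected genes spanning at least 10 kb, the median went from 12.4 to 10.1 TPM on 2L, from 16.9 to 13.6 TPM on 3L and from 14.2 to 11.3 TPM on X between replicates 1 and 2. The equal medians on chromosome 4 do not mean equal genes. Those medians cover 35 detected genes. Of all 39 coding genes of that span, 15 had a log2 ratio above 0, and the median ratio was -0.064. These ratios are TMM-scaled, while the TPM values are not. The summed level of the 39 was 1391 TPM in replicate 1 and 1194 TPM in replicate 2. The difference between arms was not tested.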
